A study of Homo sapiens with 6 samples.

Results

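Ribosome biogenesis factors are the proteins that make and assemble ribosomal subunits without staying in the finished ribosome. Here the group held 54 named genes with roles in rRNA synthesis, rRNA processing or subunit export. All 54 were found by symbol among the 62438 genes of the count table, and all 54 passed the filter on low counts that left 17320 genes for the test. The members were listed by role, not by their values in these libraries.

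The data were RNA-seq libraries of a human breast cancer cell line labelled MDA-MB-453. A set of 3 libraries came from cells given an siRNA against N6AMT1 (si-N6AMT1), and the same number came from cells given a scrambled siRNA (si-CN). The siRNA concentration was 10 nM and the time after transfection was 48 h in both groups, and the groups shared the cell line, the medium and the transfection reagent. N6AMT1 is a methyltransferase that works with the partner protein TRMT112, and the comparison addressed which mRNAs differ between cells given the 2 siRNA treatments. The libraries hold no other treatment against N6AMT1 and no rescue. Effects of reduced N6AMT1 and other effects of the siRNA therefore cannot be told apart. Nothing in the labels says whether the libraries of a group came from separate cultures, so the p-values measure the spread between these libraries. Both groups come from 1 cell line.

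Ribosome production starts in the nucleolus, where RNA polymerase I transcribes a long precursor of the 18S, 5.8S and 28S rRNAs. Box C/D and box H/ACA ribonucleoproteins (snoRNPs) then methylate and pseudouridylate the precursor, while the small subunit processome folds and cuts its 18S part. The 40S and 60S precursors are matured separately, exported through the nuclear pore and finished in the cytoplasm. Proliferating cells, cancer cells among them, are known for high activity of this pathway. The libraries were made from polyadenylated mRNA, so they measure the mRNAs of the factors and not rRNA or ribosomes.

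Library totals ran from 19739247 to 21289740 counts. N6AMT1 itself was at 3.08, 3.53 and 2.93 CPM (counts scaled to a common library size) in the si-N6AMT1 libraries and at 6.93, 6.86 and 6.65 CPM in the si-CN libraries. It fell by 53.3%, with a log2 fold change of -1.10 (SE 0.119, edgeR FDR 3.65e-07). FDR is the adjusted p of edgeR's quasi-likelihood test over all 17320 genes, and a gene is called when it is under 0.05. All log2 fold changes are si-N6AMT1 against si-CN. Of 9 luminal epithelial markers, KRT8 (594.7 to 657.6 CPM over the 6 libraries), KRT18 and EPCAM were abundant and ERBB2 was at 51.8 to 54.3 CPM. SPDEF was at most 0.305 CPM and KRT19 at most 0.683 CPM, while the basal keratins KRT5, KRT14 and KRT17 were at 755.2 to 837.8, 104.8 to 127.8 and 2788.0 to 2871.6 CPM. XBP1 was at 77.0 to 82.4 CPM, FOXA1 at 7.69 to 8.94 CPM and GATA3 at 2.40 to 3.66 CPM. The luminal markers were thus mixed. The levels of SPDEF, KRT19 and the basal keratins go against a luminal profile, which MDA-MB-453 is known for. The cells are therefore called by their label only. Summed CPM of the luminal markers was 1560.4 to 1581.3 in si-N6AMT1 and 1507.1 to 1546.5 in si-CN, with KRT8 and KRT18 called higher and EPCAM called lower. Summed CPM of 9 markers of other cell types was 3992.7 to 4076.3 and 3882.1 to 3964.9, with KRT5, KRT14 and CD68 called higher. The blood cell markers PTPRC and CD3E were at most 0.152 CPM, but CD68, listed with them, was at 141.5 to 204.2 CPM. Of the stromal and endothelial markers, COL1A1 was at 44.5 to 47.0 CPM, COL3A1 at 2.58 to 4.06 CPM and VWF at 0.711 to 1.12 CPM. The part of these marker differences in the results below was not tested.

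Ribosome biogenesis factors were not shifted in summed expression after N6AMT1 knockdown. Their summed expression was 5036.1 ± 44.6 CPM in si-N6AMT1 and 5027.3 ± 37.1 CPM in si-CN (SD, n = 3), which is 0.504% and 0.503% of the counts, and the libraries of the groups overlapped. Of the 54 members, 9 were called lower (16.7%, against 11.5% of all genes tested) and 8 were called higher (14.8%, against 9.78%), and 37 were not called. In all, 31.5% of the members were called, against 21.3% of all genes tested. Members were more abundant than most genes. Among the 8095 tested genes in the members' range of si-CN expression (20.0 to 732.3 CPM), 20.9% were called lower, 15.2% higher and 36.0% in either direction, so the members' shares lay near or below those of like-expressed genes. The libraries of the groups did not overlap for 27 members (50.0%), against 34.9% of all genes tested and 50.2% of like-expressed genes.

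The changes were small. The median log2 fold change was 0.03 for the members, -0.01 for like-expressed genes and 0.00 for all genes tested. It was above 0 for 36 members and below 0 for 18, against 8812 and 8508 of all genes tested. The median absolute log2 fold change was 0.07 for the members, 0.08 for like-expressed genes and 0.11 for all genes tested. Only 3 members, NMD3, UTP3 and PNO1, differed by 1.2-fold or more, all of them lower in si-N6AMT1, and none reached 1.5-fold. Each count was recomputed under 13 alternatives (other scaling, filters or tests, and each library left out in turn). The number called lower stayed between 7 and 9 over them. The number called higher was less stable. It was 2 by DESeq2 (FBL and POLR1C), and it fell from 8 to 3 without si-CN library 3 and to 5 without si-CN library 2, si-N6AMT1 library 2 or si-N6AMT1 library 3. RNA-seq of bulk cells gives relative levels, so fewer cells of a type and less RNA per cell cannot be told apart.

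**Figure D1:**
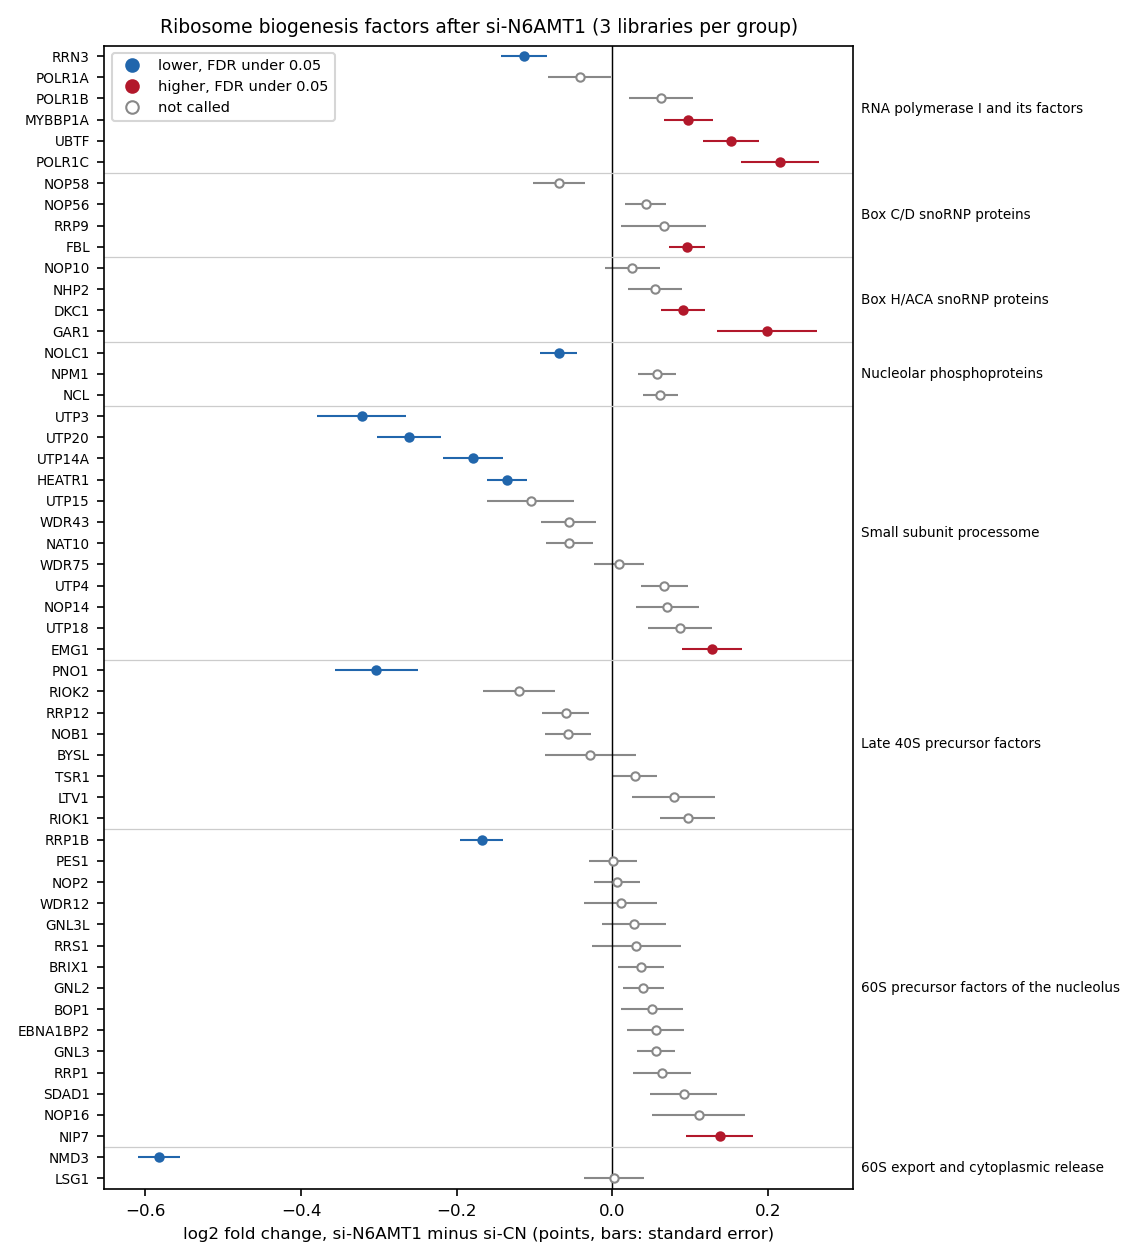
Log2 fold change of each of the 54 ribosome biogenesis factors (x axis, si-N6AMT1 minus si-CN, bars are standard errors), grouped by role. Filled points passed an FDR of 0.05, with 9 lower in blue and 8 higher in red, and NMD3 at -0.58 stands apart from the others, which lie between -0.32 and 0.22.

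The largest change was in subunit export. NMD3 is the adaptor that binds the 60S subunit in the nucleus and carries it through the nuclear pore together with the export receptor XPO1. NMD3 expression was 97.9, 98.7 and 102.3 CPM in the si-N6AMT1 libraries and 147.5, 149.7 and 150.3 CPM in the si-CN libraries. Every si-N6AMT1 library was far below every si-CN library, and the gap between the groups was many times the spread within them. NMD3 expression fell by 33.2%, with a log2 fold change of -0.58 (SE 0.0270, edgeR FDR 4.72e-13). By p-value it ranked 13 among the 17320 genes tested, and by size of fall it ranked 199. Its log2 fold change lay between -0.60 and -0.54 under all 13 alternatives, and it kept its call in each. NMD3 lies at chr3:160822484-160971320 on the plus strand (GRCh37), has 16 exons in its reference transcript, and its 2 named pseudogene copies had no counts in these libraries.

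LSG1 and XPO1, which act with NMD3, did not pass the test. LSG1, the cytoplasmic GTPase that releases NMD3 from the 60S subunit, was at 51.3, 50.6 and 52.6 CPM in si-N6AMT1 and at 52.4, 49.4 and 52.4 CPM in si-CN (log2 fold change 0.00, SE 0.0383, edgeR FDR 0.974). XPO1 had a log2 fold change of 0.04 (SE 0.0224, edgeR FDR 0.193). The LSG1 libraries overlapped between the groups, unlike those of NMD3. Among 7 other genes of 60S export and cytoplasmic release, ZNF622 and 1 more gene, SBDS, were called lower and none higher. Of all genes tested, 11.5% were called lower, and of genes in the members' range of expression 20.9%. ZNF622, a cytoplasmic maturation factor of the 60S subunit, was at 74.6, 72.5 and 72.6 CPM in si-N6AMT1 and at 86.9, 83.6 and 89.6 CPM in si-CN (log2 fold change -0.24, SE 0.0330, edgeR FDR 7.71e-06). SBDS, which acts in the release of EIF6 from the 60S subunit and was named after its values were seen, had a log2 fold change of -0.10 (SE 0.0293, edgeR FDR 0.0182).

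The small subunit processome was the group with the most members called lower. Of its 12 members, 4 were called lower (UTP3, UTP20, UTP14A and HEATR1) and EMG1 was called higher, with a median log2 fold change of -0.06. Its summed expression was 773.3 ± 3.66 CPM in si-N6AMT1 and 801.2 ± 7.17 CPM in si-CN (SD, n = 3), which fell by 3.49% without overlap of the libraries. The sum includes the members called lower. Among them, mean HEATR1, whose counts are uncertain (below), was 141.9 CPM in si-CN and 129.2 in si-N6AMT1. The share called lower was 33.3%, against 20.9% of like-expressed genes. The sum of the other processome genes followed was not lower. Of 28 tested, 2 were called lower and 5 higher, their log2 fold changes had a median of 0.00, and their summed expression was 1686.8 ± 7.43 CPM in si-N6AMT1 and 1677.8 ± 10.7 CPM in si-CN (SD, n = 3), with overlap.

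UTP3, a processome protein encoded by a single-exon gene at chr4:71554249-71556268 (plus strand, GRCh37), was at 24.1, 29.0 and 25.0 CPM in si-N6AMT1 and at 32.7, 32.6 and 32.4 CPM in si-CN. The si-CN libraries were nearly equal, and si-N6AMT1 library 2 lay closer to them than the other 2 si-N6AMT1 libraries did. UTP3 fell by 20.0% (log2 fold change -0.32, SE 0.0573, edgeR FDR 0.000221). UTP20, a very large scaffold protein of the early 40S precursor, was at 44.6, 43.9 and 41.6 CPM in si-N6AMT1 and at 50.7, 54.1 and 51.1 CPM in si-CN, without overlap (log2 fold change -0.26, SE 0.0411, edgeR FDR 5.53e-05). UTP14A, which activates the RNA helicase DHX37 in the processome, was at 48.9, 50.6 and 53.2 CPM in si-N6AMT1 and at 58.5, 57.4 and 57.0 CPM in si-CN, again without overlap (log2 fold change -0.18, SE 0.0382, edgeR FDR 0.00139). All these calls held under all 13 alternatives.

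HEATR1, UTP4, UTP15, WDR43 and WDR75 belong to the processome module that is also needed for transcription of the rRNA precursor. HEATR1 had a log2 fold change of -0.14 (SE 0.0255, edgeR FDR 0.000407), but its exons overlap 2095 bases of LGALS8 on the opposite strand, and its counts are uncertain where reads of both genes could be mixed. UTP15 (-0.11), WDR43 (-0.06), WDR75 (0.01) and UTP4 (0.07) did not pass the test, so the module was not called as a whole. EMG1, the methyltransferase that modifies a pseudouridine of 18S rRNA, was at 59.9, 58.9 and 63.4 CPM in si-N6AMT1 and at 57.8, 54.9 and 54.3 CPM in si-CN. All si-N6AMT1 libraries were above all si-CN libraries by a small margin (log2 fold change 0.13, SE 0.0386, edgeR FDR 0.0200). EMG1 shares 1506 exonic bases with LPCAT3 on the opposite strand, and it lost its call by DESeq2 and without si-CN library 2, si-CN library 3 or si-N6AMT1 library 3. NAT10, which acetylates 18S rRNA, and NOP14 and UTP18 were not called.

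Of 8 late 40S precursor factors, PNO1 was called lower and the other 7 were not called (20.9% of like-expressed genes were called lower). PNO1 binds near the 3′ end of the 18S rRNA, beside the endonuclease NOB1 that makes the final cut there. PNO1 was at 32.1, 33.8 and 34.1 CPM in si-N6AMT1 and at 38.4, 39.9 and 45.1 CPM in si-CN. The groups did not overlap, and si-CN library 3 was the highest. PNO1 fell by 19.0% (log2 fold change -0.30, SE 0.0530, edgeR FDR 0.000182), and its log2 fold change was between -0.35 and -0.23 over the alternatives. NOB1 had a log2 fold change of -0.06 and was not called. The kinases RIOK2 and RIOK1, which act in the last steps of 40S maturation, had log2 fold changes of -0.12 (SE 0.0464, edgeR FDR 0.0724) and 0.10 (SE 0.0356, edgeR FDR 0.0564). Both missed the threshold, in opposite directions, although neither gene's libraries overlapped between the groups. BYSL, LTV1, TSR1 and RRP12 also did not pass. The summed expression of the 8 genes was 510.2 ± 2.75 CPM in si-N6AMT1 and 520.8 ± 3.87 CPM in si-CN (SD, n = 3). It fell by 2.03% without overlap. The sum includes PNO1, with a mean of 41.1 CPM in si-CN and 33.4 in si-N6AMT1.

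Of the 6 genes of RNA polymerase I and its factors, POLR1C, UBTF and MYBBP1A were called higher and RRN3 was called lower. Like-expressed genes were called higher in 15.2% and lower in 20.9% of cases, and 6 genes are few for a share. POLR1C, a subunit shared by RNA polymerases I and III, was at 32.1, 32.8 and 35.7 CPM in si-N6AMT1 and at 29.9, 28.4 and 28.4 CPM in si-CN. It was upregulated by 16.1% without overlap (log2 fold change 0.22, SE 0.0504, edgeR FDR 0.00311) and was the one gene called higher that kept its call under all 13 alternatives. UBTF, the factor that opens rDNA chromatin and recruits RNA polymerase I, was at 58.4, 59.1 and 57.4 CPM in si-N6AMT1 and at 53.6, 52.4 and 51.3 CPM in si-CN. The groups were separate and of similar spread (log2 fold change 0.15, SE 0.0359, edgeR FDR 0.00327), and the call was lost by DESeq2 alone.

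RRN3, which carries RNA polymerase I to the promoter, had a log2 fold change of -0.11 (edgeR FDR 0.00781) and lost its call in 2 alternatives, DESeq2 among them. Its named pseudogene copies held 5.76% as many counts as RRN3 itself, so its counts are uncertain. MYBBP1A, a nucleolar protein bound to RNA polymerase I, had a log2 fold change of 0.10 (edgeR FDR 0.0292) and lost its call in 5 alternatives, among them DESeq2 and the removal of si-CN library 1, si-CN library 3 or si-N6AMT1 library 1. The catalytic subunits did not move with UBTF and POLR1C. POLR1A, the largest subunit, was at 44.9, 42.3 and 42.8 CPM in si-N6AMT1 and at 45.0, 44.2 and 44.6 CPM in si-CN (log2 fold change -0.04, SE 0.0400, edgeR FDR 0.524). POLR1B had a log2 fold change of 0.06 (SE 0.0409, edgeR FDR 0.315). Among 10 other genes of RNA polymerase I and its factors, 0 were called by edgeR. Of all genes tested 21.3% were called, and of genes in the members' range of expression 36.0%. Their log2 fold changes were below 0 for 7 and above 0 for 3, with a median of -0.05.

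Of the 8 snoRNP proteins, 3 were called, all of them higher (36.0% of like-expressed genes were called). FBL, the methyltransferase of box C/D snoRNPs, was at 198.0, 195.7 and 197.9 CPM in si-N6AMT1 and at 186.0, 183.5 and 184.1 CPM in si-CN. These libraries were tightly grouped and did not overlap, so that a rise of 6.85% passed the test (log2 fold change 0.10, SE 0.0233, edgeR FDR 0.00437), although the call was lost in 1 of the 13 alternatives. Its scaffold partners NOP56 (log2 fold change 0.04, edgeR FDR 0.294) and NOP58 (log2 fold change -0.07, edgeR FDR 0.166) were not called, nor was the U3 protein RRP9.

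DKC1, the pseudouridine synthase of box H/ACA snoRNPs and of telomerase, was at 103.9, 105.4 and 107.7 CPM in si-N6AMT1 and at 100.0, 99.7 and 98.2 CPM in si-CN, without overlap (log2 fold change 0.09, SE 0.0282, edgeR FDR 0.0237). GAR1, another core protein of these particles, was at 26.1, 26.4 and 27.2 CPM in si-N6AMT1 and at 25.8, 20.6 and 23.1 CPM in si-CN. The si-N6AMT1 libraries were close together, and si-CN library 1 nearly reached them (log2 fold change 0.20, SE 0.0641, edgeR FDR 0.0294). DKC1 and GAR1 lost their calls by DESeq2 and without si-CN library 2, si-CN library 3, si-N6AMT1 library 2 or si-N6AMT1 library 3, and DKC1 also without the filter on low counts. GAR1's log2 fold change fell to 0.12 without si-CN library 2. NHP2 and NOP10 were above 0 and not called. The summed expression of the 4 box H/ACA proteins was 262.4 ± 1.90 CPM in si-N6AMT1 and 248.9 ± 5.94 CPM in si-CN (SD, n = 3), 5.41% higher without overlap.

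The abundant nucleolar phosphoproteins changed little. NPM1, a histone and ribosome chaperone, was at 733.9, 771.8 and 782.0 CPM in si-N6AMT1 and at 750.3, 715.1 and 731.7 CPM in si-CN, with overlap (log2 fold change 0.06, SE 0.0243, edgeR FDR 0.0952). NCL, which binds the rRNA precursor, was at 382.3, 383.6 and 384.4 CPM in si-N6AMT1 and at 372.1, 374.6 and 355.7 CPM in si-CN. NCL did not overlap between the groups, yet it missed the threshold (log2 fold change 0.06, SE 0.0230, edgeR FDR 0.0603). NOLC1, a chaperone of snoRNPs, was at 188.7, 186.7 and 186.9 CPM in si-N6AMT1 and at 198.0, 197.3 and 194.6 CPM in si-CN. It fell by 4.69% (log2 fold change -0.07, SE 0.0233, edgeR FDR 0.0370). Its call was lost in 10 of the 13 alternatives, including the removal of any single library.

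The 60S precursor factors of the nucleolus were the largest group, and few of them were called. Of 15 genes, RRP1B was called lower and NIP7 higher, and 14 of 15 log2 fold changes were above 0, with a median of 0.04. Each share called was 6.67%, below the 20.9% lower and 15.2% higher of like-expressed genes. RRP1B, a nucleolar protein that also binds chromatin, was at 104.9, 103.5 and 105.5 CPM in si-N6AMT1 and at 114.7, 120.3 and 117.8 CPM in si-CN. It fell by 11.0% without overlap (log2 fold change -0.17, SE 0.0279, edgeR FDR 0.000102), and the call held under all 13 alternatives. Its paralog RRP1 had a log2 fold change of 0.06 and was not called. NIP7, needed for 60S assembly and 27S rRNA processing, was at 45.4, 45.5 and 43.4 CPM in si-N6AMT1 and at 42.1, 41.4 and 38.6 CPM in si-CN. The lowest si-N6AMT1 library was just above the highest si-CN library (log2 fold change 0.14, SE 0.0430, edgeR FDR 0.0240), and the call was lost by DESeq2 and without si-CN library 3, si-N6AMT1 library 1 or si-N6AMT1 library 2.

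PES1, BOP1 and WDR12 form the PeBoW complex that processes the 60S part of the precursor. Their log2 fold changes were 0.00 (SE 0.0311), 0.05 (SE 0.0397) and 0.01 (SE 0.0467), and the libraries of the groups overlapped for each. The nucleolar GTPase GNL3 (nucleostemin) was at 179.0, 182.3 and 184.7 CPM in si-N6AMT1 and at 173.2, 178.6 and 173.8 CPM in si-CN (log2 fold change 0.06, edgeR FDR 0.122). The summed expression of the 15 genes was 1182.2 ± 15.1 CPM in si-N6AMT1 and 1162.1 ± 6.75 CPM in si-CN (SD, n = 3), with overlap.

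**Figure D2:**
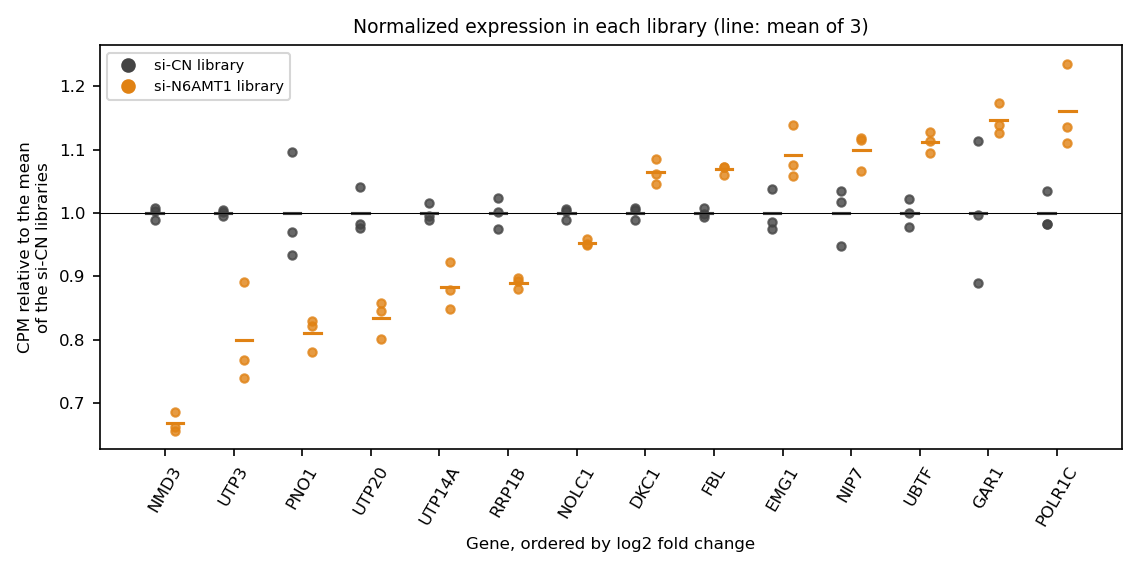
CPM of 14 called ribosome biogenesis factors in each library, divided by the mean of the si-CN libraries (y axis), in order of log2 fold change. Points are libraries (3 per group) and lines are group means. The si-N6AMT1 points of NMD3 lie around its fold of 0.668, below those of all other genes shown, and the points of GAR1 in si-CN are the most spread among the genes called higher.

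**Figure D3:**
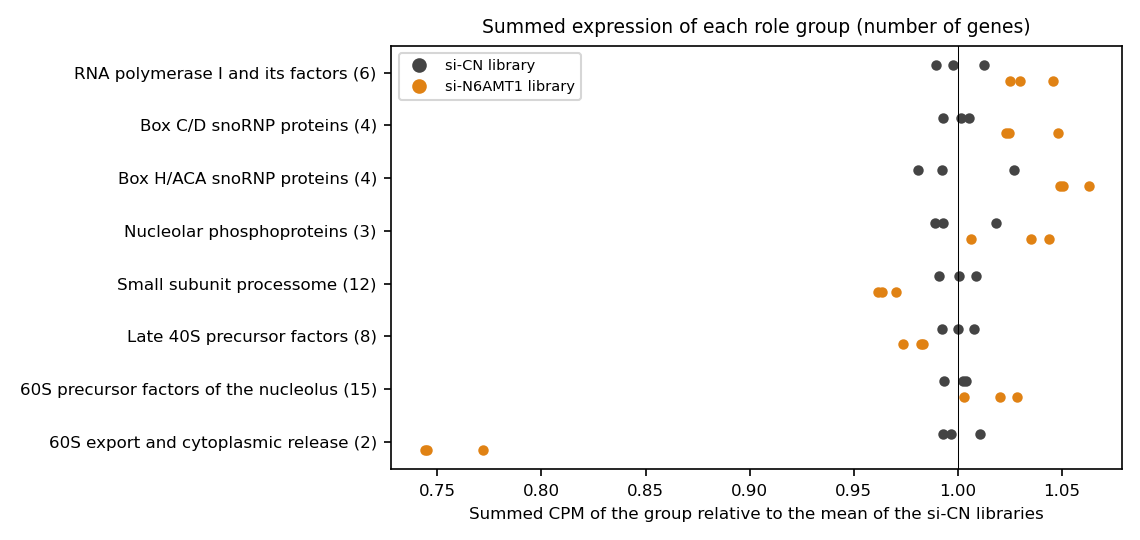
Summed CPM of each role group in each library, relative to the mean of the si-CN libraries (x axis), with the number of genes in parentheses. The sums of the processome, late 40S and export groups lie below the si-CN libraries, and those of RNA polymerase I and both snoRNP groups above them. The nucleolar phosphoproteins and the nucleolar 60S factors overlap with them. Each sum includes the called members and need not reflect the whole group. In the export group mean NMD3 was 149.2 CPM in si-CN and 99.6 in si-N6AMT1, and LSG1 51.4 and 51.5. No background was computed for overlap of sums.

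By level per transcript length, the members spanned 155.2-fold in si-CN. TPM, the level relative to all transcripts of a library, was estimated here from the counts and the length of 1 reference transcript per gene. It ran from 7.95 for POLR1A to 1234.1 ± 18.8 (SD, n = 3) for NPM1, with a median of 50.6. FBL was next at 364.9 ± 2.06 TPM, followed by NOP10 at 254.8, NCL at 208.3 and GNL3 at 201.6. The 5 highest thus came from several role groups, and the lowest were POLR1A, WDR12 (8.39 TPM), UTP15 (9.68 TPM) and GNL3L (12.6 TPM), the last overlapping with UTP20 (12.8 TPM). The reference transcripts of POLR1A (12480 bases), WDR12 (8068), UTP15 (5096) and GNL3L (8684) are long, against a median of 2502 bases over the members. By CPM in si-CN, POLR1A (44.6) lay above RRS1 (20.0), so the low end and the span depend on the transcript used. NMD3 was at 109.6 ± 2.40 TPM. Of the 53 pairs of neighbours in the order of levels, 28 overlapped between their libraries and cannot be ordered. Box C/D proteins assemble in one particle, yet FBL was above NOP56 (158.1 TPM), NOP58 (98.2 TPM) and RRP9 (40.2 TPM), and none of these overlapped with the next.

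**Figure D4:**
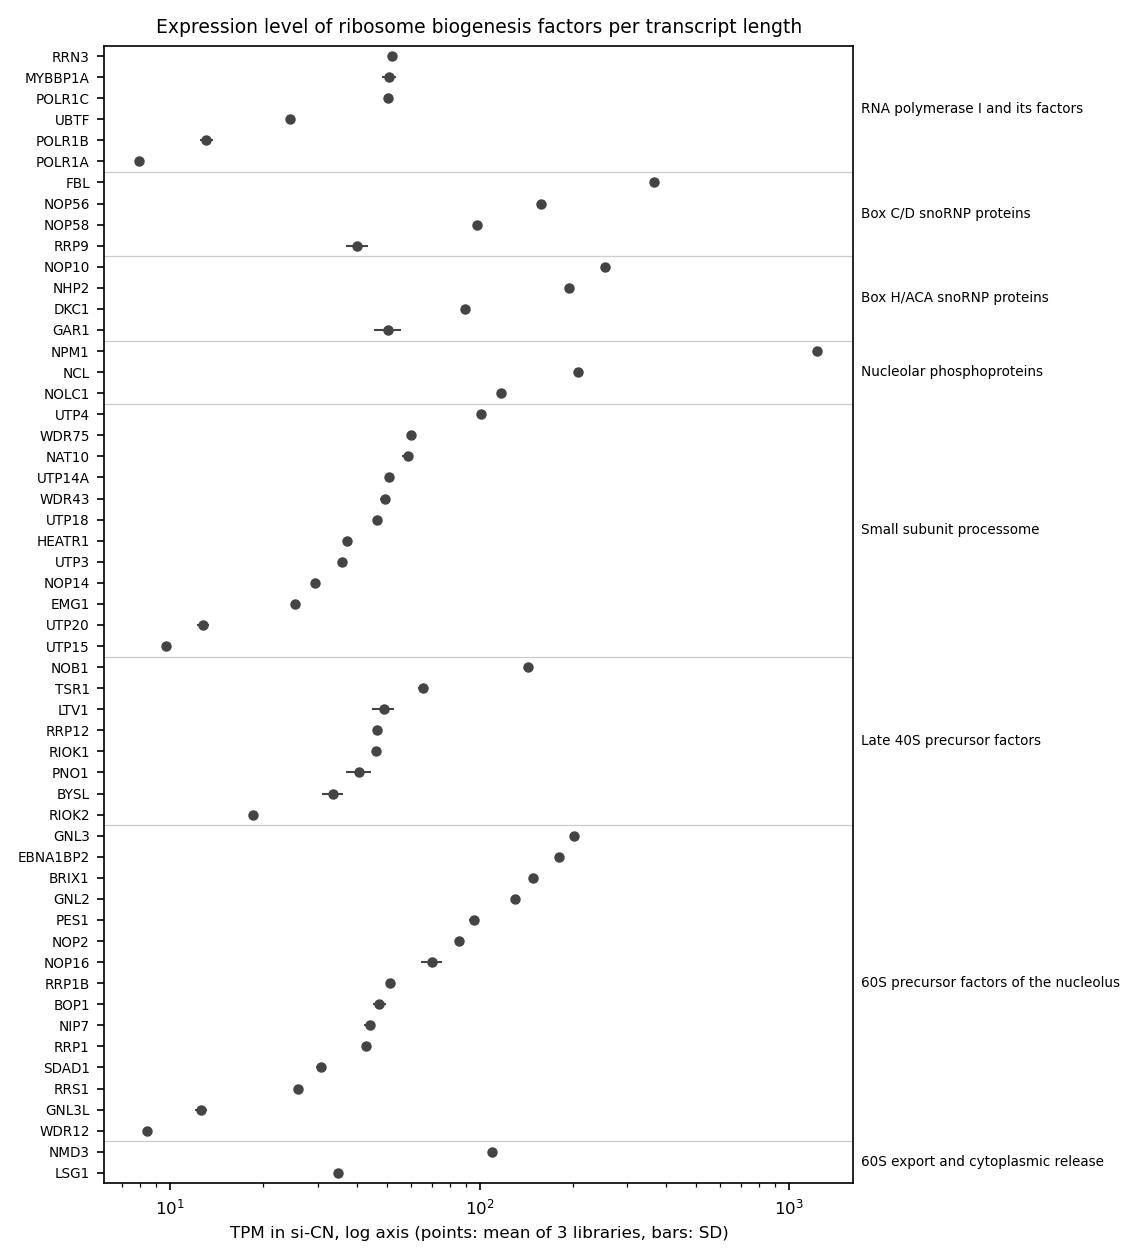
TPM of each of the 54 members in si-CN (x axis, log scale), grouped by role. Points are means of 3 libraries and bars are SDs. NPM1 is highest at 1234.1 TPM and POLR1A lowest at 7.95 TPM.

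Members called lower had longer transcripts of lower GC content than members called higher, the same direction as over all protein-coding genes. The 9 members called lower had a median reference transcript of 3706 bases, a median GC content of 42.3% and a median 3′ UTR of 1436 bases. The 8 called higher had 2262 bases, 50.1% and 666 bases, and the 37 not called had 2350 bases, 47.2% and 421 bases. Over all protein-coding genes, those called lower had medians of 4569 bases and 43.3% GC and those called higher 2710 bases and 52.6% GC. Their median 3′ UTRs were 2070 bases when called lower, 965 when called higher and 1232 when not called. Across the 54 members, log2 fold change and transcript length had a Spearman rho of -0.334 (-0.209 over 13362 protein-coding genes), and log2 fold change and GC content had 0.269 (0.221 over the same genes). These are correlations across genes from the same 6 libraries, and genes are not independent replicates.

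The largest falls, NMD3 and UTP3, also shared an 8-base word in their 3′ UTRs. The word TTCACATA and its 7-base parts TTCACAT and TCACATA were searched on the sense strand of the 3′ UTR of each reference transcript. The letters were taken up because of how genes with them moved in these same libraries, so the counts that follow are a description and no independent evidence. The sites of the members are printed with 9 bases on either side and the matching letters in capitals, from the GRCh37 genome, as they lie in the mRNA. They are shown because they mark which members carry the word.
NMD3: tgtagtattTTCACATAgtatagtac
UTP3: gtgtaacttTTCACATAaagagaatg
RRP1B: aagaatatgTCACATAaagaaaatg
POLR1B: gtactgttcTCACATAttttcagac
WDR12: cgataacacTTCACATttaaaatca
GNL3L, first site: ctctaccatTTCACATtcccatcag
GNL3L, other site: ggcaaggtgTTCACATctcttgcat

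These windows lie at chr3:160968973-160968998 on the plus strand for NMD3, chr4:71556121-71556146 on the plus strand for UTP3 and chr21:45115494-45115518 on the plus strand for RRP1B. Those of POLR1B, WDR12 and GNL3L lie at chr2:113336446-113336470 (plus), chr2:203739593-203739617 (minus), chrX:54591830-54591854 (plus) and chrX:54592175-54592199 (plus). In NMD3 the site starts 284 bases into a 3′ UTR of 1397 bases, and in UTP3 it starts 296 bases into one of 434 bases. Of the 54 members, 2 had the 8-base word, both called lower, and 4 had a 7-base word only. Of these 4, RRP1B was called lower and POLR1B, WDR12 and GNL3L were not called. Of the 48 members without a site, 6 were called lower and 8 higher. In all, 11.1% of the members had a site, against 22.2% of 13301 protein-coding genes tested. Over those genes, 41.1% of the 618 with the 8-base word, 25.0% of the 2340 with a 7-base word only and 10.3% of the 10343 with neither were called lower. Protein-coding genes called lower also had longer 3′ UTRs, with a median of 2070 bases, against 965 for those called higher and 1232 for those not called. The shares were not adjusted for this, and the part of 3′ UTR length in them was not tested. UTP20, PNO1, UTP14A and HEATR1, also called lower, held neither word in the 3′ UTR used here.

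Many genes of this pathway are known targets of MYC, which binds the E-box CACGTG. Promoters of 300 bases (250 before to 50 after the start, RefSeq, GRCh38.p14) were found for 48 of the 54 members, but not for NOP58, NOLC1, RRP12, BOP1, RRP1B and RRS1. The E-box, which reads the same on both strands, was in 19 of 48 member promoters (39.6%), against 9.75% of the 11714 promoters of genes tested and 7.43% of all 27305 promoters. The E-boxes of the called members are printed below with up to 12 bases on either side, the E-box in capitals, on the strand of the gene.
MYBBP1A: ggggccggagcaCACGTGtttcgtgtttcg
FBL: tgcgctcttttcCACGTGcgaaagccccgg
UTP14A: accttgggcCACGTGgaaaccaggggc
UTP20: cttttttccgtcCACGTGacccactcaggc
PNO1: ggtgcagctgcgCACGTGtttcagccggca

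They lie at chr17:4555340-4555369 (minus), chr19:39846356-39846385 (minus), chrX:129905914-129905940 (plus), chr12:101280083-101280112 (plus) and chr2:68157885-68157914 (plus). The E-box starts 10 bases before the start of UTP20, 10 bases after that of PNO1 and 7 bases after that of FBL, and it is farther off, 241 bases before the start, in UTP14A. By role, it was in 7 of 12 processome promoters, 5 of 12 nucleolar 60S promoters and 3 of 7 late 40S promoters, but in 1 of 6 promoters of RNA polymerase I and its factors and in 0 of 2 export promoters, NMD3 among them. Members with the E-box went in both directions. Of the 19 members with it, 3 were called lower, 2 higher and 14 were not called (20.9% of like-expressed genes were called lower and 15.2% higher). The median log2 fold change was 0.04 with it and 0.04 without it.

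An ETS motif (CCGGAAG, searched on both strands) was also in 19 of 48 member promoters (39.6%), against 18.3% of promoters of genes tested. Of these 19 members, 2 were called lower and 5 higher (20.9% and 15.2% of like-expressed genes). The median log2 fold change was 0.07 with the motif and 0.01 without it. The 5 called higher were POLR1C, FBL, GAR1, EMG1 and NIP7. GAR1, EMG1 and NIP7 lost their calls by DESeq2 and with some single libraries left out. The part of the motif in these calls was not tested. The GC box GGGCGG (75.0% of members, 67.8% of genes tested), CCAAT (31.2% and 36.8%) and TATAAA (4.17% and 6.35%), also searched on both strands, were closer to the share of genes tested. A match describes letters in this window and is not evidence that a factor binds there.

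A set of 8 members also carry small nucleolar or Cajal body RNA genes within their own bounds: POLR1C, NOP56, NOP58, DKC1, NCL, WDR43, TSR1 and GNL3. The RNA within POLR1C is SCARNA15, a small Cajal body RNA. Of these 8 hosts, 0 were called lower and 2, POLR1C and DKC1, were called higher by edgeR, with log2 fold changes from -0.07 to 0.22. The shares called lower and higher were 11.5% and 9.78% of all genes tested, and 20.9% and 15.2% of like-expressed genes. With 8 genes, these counts are too few to say anything particular to hosts.

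Beyond the 54 members, 90 other genes of ribosome biogenesis were followed, of which 89 were tested. Of these, 8 were called lower and 12 higher (8.99% and 13.5%, against 11.5% and 9.78% of all genes tested), with a median log2 fold change of 0.01. They were at 13.1 to 394.6 CPM in si-CN. Genes in the members' range of expression were called lower in 20.9% and higher in 15.2% of cases, so neither share was raised against those. Their summed expression was 6200.3 ± 32.6 CPM in si-N6AMT1 and 6195.8 ± 54.5 CPM in si-CN (SD, n = 3), with overlap. PAK1IP1, a factor of 60S maturation, was at 41.0, 36.6 and 35.5 CPM in si-N6AMT1 and at 50.0, 46.0 and 45.1 CPM in si-CN (log2 fold change -0.32, SE 0.0513, edgeR FDR 7.25e-05). It was the largest fall of this list, and its groups did not overlap. MDN1, the giant ATPase that strips assembly factors from the 60S precursor, had a log2 fold change of -0.14 (SE 0.0342, edgeR FDR 0.00405).

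TRMT112, the small protein that activates N6AMT1 and several rRNA and tRNA methyltransferases, was at 95.2, 98.2 and 99.2 CPM in si-N6AMT1 and at 88.2, 87.6 and 90.8 CPM in si-CN. It rose as N6AMT1 fell, without overlap (log2 fold change 0.13, SE 0.0299, edgeR FDR 0.00198). BUD23, the TRMT112-dependent methyltransferase of 18S rRNA, was named after its values were seen and had a log2 fold change of 0.10 (SE 0.0284, edgeR FDR 0.0156). CEBPZ, a 60S assembly factor, had a log2 fold change of 0.16 (SE 0.0367, edgeR FDR 0.00295). EXOSC4, a core subunit of the RNA exosome that trims rRNA ends, had 0.30 (SE 0.0735, edgeR FDR 0.00410). Of 12 exosome genes, 3 were called higher and 0 lower by edgeR (9.78% and 11.5% of all genes tested). Genes in the members' range of expression were called higher in 15.2% and lower in 20.9% of cases. The counts over the 89 other pathway genes were also lower by DESeq2, with 3 called lower and 3 higher. Without si-CN library 1, 5 were called lower, and without si-N6AMT1 library 3, 7 were called higher.

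Counts of some members carry more uncertainty than the replicates show. Reads were divided among similar transcripts by an estimate, and the strand setting of that step is not given in the sources used here. Of the 54 members, 17 overlap an exon of a gene on the opposite strand and 6 overlap one on the same strand. Named pseudogene copies exist for 14, with 75 in all. Copies of SDAD1 held 7.71% as many counts as SDAD1 and those of GNL3L 2.07%, while the 49 copies of NPM1 together held 0.213%. NMD3, UTP3, UTP20, UTP14A and RRP1B had no exon overlap on the opposite strand. The search for copies by name did not cover UTP14C, which had 0 counts in every library. Whether reads of UTP14C were assigned to UTP14A was not tested. PNO1 overlapped 235 bases of an antisense gene at 2.35 CPM.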

How the data were processed

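RNA was extracted by the authors from si-N6AMT1 and si-CN cells (3 libraries per group, 10 nM siRNA, 48 h per the labels) and sequenced as stranded mRNA libraries. Per the submitters' processing notes, reads were trimmed with Trim Galore and quantified with kallisto v0.46.0 on hg19. The values the authors deposited are estimated counts (expected counts, whole numbers, summed per gene, not normalized). All 6 columns were matched to samples by name.

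The test was edgeR's quasi-likelihood test (v4.0.16, R v4.3.3) over all 6 libraries, with no covariate. The function filterByExpr, set to at least 10 counts, left 17320 of 62438 genes. Scaling was by TMM. P-values were adjusted across the tested genes by Benjamini-Hochberg (FDR), and 0.05 was the threshold. Each SE was obtained as |log2 fold change| / √F. CPM uses the TMM library sizes. Gene symbols, coordinates, transcript lengths, GC content and 3′ UTRs came from GENCODE on GRCh37 (62149 identifiers matched), with 1 reference transcript per gene, and promoters from RefSeq on GRCh38.p14. A chi-square per degree of freedom between libraries was 1.37 to 1.77 within groups and 6.89 to 7.80 between groups. These values do not show whether the libraries of a group came from separate cultures. Each library was entered as a replicate, and with so small a spread the FDRs may not cover differences between cultures. Library totals were 19739247 to 21289740 counts, the least abundant member was at 20.0 CPM in si-CN, and the common biological coefficient of variation was 1.85%.

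Alternatives were RLE scaling, no filter, DESeq2 v1.42.0, limma-voom (limma v3.58.1), a replicate block, a block with a GC offset, no mitochondrially encoded genes, and each library left out in turn. Library values are given for the 2 called members with the smallest FDR in each role and the 5 largest falls and rises, and for some uncalled members chosen after their values were seen. Among other pathway genes the 3 with the smallest FDR in each direction are named. Scripts were tested on simulated data. The members, lists and motifs were chosen with earlier results of these data known. A luminal marker gene is not reported here, and values over the markers leave it out.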

Additional observations from a re-analysis of the deposited data

How the results depend on the processing

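Of the 17 called members, 8 (NMD3, UTP3, PNO1, UTP20, UTP14A, RRP1B, HEATR1 and POLR1C) kept their call under all 13 alternatives, and 0 reversed direction under any of them. The number of members called lower was 7 to 9. The number called higher was 2 by DESeq2 and ranged from 3 to 11 with 1 library left out. Among the other pathway genes, DESeq2 called 3 lower and 3 higher and the block with a GC offset called 5 lower, and leaving out 1 library gave 5 to 8 lower and 7 to 10 higher. Over all genes, DESeq2 called 1136 lower and 796 higher, against 1993 and 1694 by edgeR. The members' median log2 fold change was 0.034, and 0.030 to 0.045 with 1 library left out. The cause of these differences was not tested.

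Same-numbered libraries did not deviate together (r of -0.0381, -0.0422 and 0.00997, against -0.0117 to 0.0494 for other pairs), so the replicate numbers were not used to pair them. With the replicate number as a block, 8 members were called lower and 8 higher, and 1804 genes lower and 1522 higher over all genes, and NOLC1 was the only member that lost its call. Of the 17 called members, 3 changed by 1.2-fold or more, so most calls rest on small differences between 3 libraries per group.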
